A study of Rattus norvegicus with 35 samples.

Results

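The genes followed here code for enzymes of xenobiotic metabolism, and they were chosen by name: every cytochrome P450 gene other than Cyp1a1, Cyp1a2 and Cyp1b1, the flavin-containing monooxygenases (Fmo), the aldehyde oxidases (Aox), the aldehyde dehydrogenases (Aldh), the soluble glutathione transferases (Gst), the UDP-glucuronosyltransferases (Ugt1 and Ugt2) and the sulfotransferases (Sult). The array carried 159 such gene names among 34766. A gene was kept as measured where the signal exceeded background clearly (the scanner's well-above-background mark) on 5 or more of 35 arrays, which left 108 of these enzymes among 24473 genes. Of the 108, 81 were well above background on all 35 arrays. By family, 38 of 57 P450 genes of families 2 to 4, 13 of 22 other P450 genes, 8 of 12 Fmo and Aox genes, 19 of 20 Aldh genes, 19 of 22 Gst genes, 5 of 12 Ugt genes and 6 of 14 Sult genes were measured. The name rule also takes in enzymes known for acting on the body's own molecules, among them Cyp7b1, Cyp27a1, Cyp51, Aldh18a1, Aldh1l2 and Aldh6a1.

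Xenobiotic metabolism is usually described in phases. Phase I enzymes, mainly the P450s with the flavin monooxygenases, aldehyde oxidases and aldehyde dehydrogenases, oxidise a compound, and phase II enzymes couple the product to glutathione, glucuronic acid or sulfate so that it can be exported. In rodent lung much of the P450 content lies in club cells of the airway, where Cyp2f, Cyp2a, Cyp2b and Cyp4b enzymes are known for activating inhaled toxicants, while Fmo2 is the main pulmonary flavin monooxygenase of many mammals.

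RNA came from the accessory lobe of the lung of 35 female Sprague Dawley rats, 1 rat per one-colour Agilent array, collected at the time labelled as day 3 post exposure. The rats were 12 weeks old at the first instillation and received material into the trachea once a week for 4 weeks. There were 6 p53het rats given Mitsui-7, 5 p53het rats given NM-403, 6 p53het controls, 6 wild-type (WT) rats given Mitsui-7, 6 WT rats given NM-403 and 6 WT controls. Both materials, Mitsui-7 and NM-403, are carbon nanotubes of the multi-walled kind, labelled 0.25 mg per rat without saying whether that is each instillation or the total, and controls received the vehicle Pluronic. The p53het rats are labelled only as heterozygous for p53, a tumour suppressor, and the design of the allele and the number of founder lines are not given in the labels.

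A level here is the log2 signal of 1 probe minus the 75th percentile of its array, so 0 is the level of a fairly bright probe and each unit is a doubling. Differences are Mitsui-7 or NM-403 minus control on that scale, with the standard error from limma, and a gene is called where limma's p-value, adjusted by the Benjamini-Hochberg method over all 24473 genes of the comparison, is under 0.05. Between 66.1% and 86.4% of the 58717 non-control spots were well above background on an array, with a median of 71.5%, and no saturated spot was found. The highest share was that of WT Mitsui-7 replicate 5, and every other array lay at 74.6% or below. There were 5 slides, each of which held at least 5 of the 6 groups.

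In WT rats given Mitsui-7, 17 of the 108 enzymes fell and 8 rose against WT controls. Over all genes measured, 4.8% were called lower and 8.94% higher in that comparison. In p53het rats given Mitsui-7, 17 enzymes fell and 6 rose against p53het controls, where 6.49% of all genes were called lower and 5.16% higher. The balance over all genes depended on scaling. In p53het rats 1262 genes were higher and 1589 lower, against 1367 and 1129 with quantile normalization and 1289 and 1159 with array median scaling. In WT rats 2189 were higher and 1175 lower, against 1758 and 1786 and 1688 and 1962. Under these settings 15 and 16 enzymes fell and 6 rose in p53het rats, and 22 and 25 fell and 8 rose in WT rats. The median difference of the 108 enzymes was -0.09 in WT and -0.13 in p53het rats, beside 0.04 and -0.03 over all genes. Below 0 lay 53.7% of the enzymes in WT and 64.8% in p53het rats, beside 43.4% and 53.9% of all genes. The 2 genotypes have separate controls, and 13 of the 17 enzymes that fell in p53het rats also fell in WT rats, a share of 76.5% of each list. The same overlap over all genes was 48.7% of the genes that fell in p53het rats and 65.9% of those that fell in WT rats. All 6 enzymes that rose in p53het rats were among the 8 that rose in WT rats, and none was called in opposite directions. Over all genes 83.3% of the rises in p53het rats and 48% of those in WT rats were shared, and no gene was called in opposite directions.

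Several of these calls separated the groups completely. Of the 17 WT falls, 9 had every Mitsui-7 rat below every control, as had 8 of the 17 p53het falls, and complete separation upward held for 6 of 8 WT rises and 4 of 6 p53het rises. Over all called genes such separation held for 32.9% of falls and 49.8% of rises in p53het rats and for 44.7% of falls and 50.1% of rises in WT rats. Every WT call had the same direction on each of the 4 slides that held both groups, and 22 of 23 p53het calls did so on 5 slides, Cyp2j3 being the exception. Over all called genes the direction was the same on every slide for 93.5% of falls and 95% of rises in p53het rats and for 96.8% of falls and 94.6% of rises in WT rats. With the slide as a fixed block, limma called 29 enzymes lower and 9 higher in WT rats and 28 lower and 9 higher in p53het rats, where 9.3% and 12.5% of all genes were called lower and higher in WT rats and 13.9% and 8.9% in p53het rats. All calls made without the block were kept with it. In whole lobes, fewer cells of a type and less RNA per cell cannot be told apart.

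**Figure D1:**
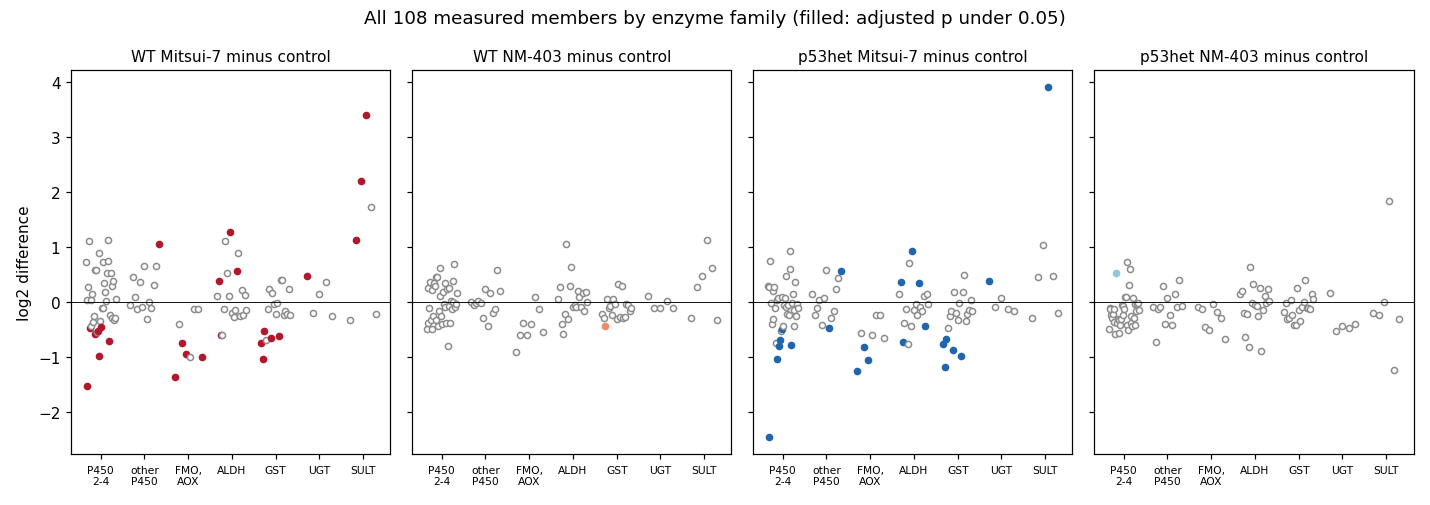
Log2 differences of the 108 measured enzymes (vertical axis, log2 units), by enzyme family (horizontal axis), in 4 panels for WT and p53het rats given Mitsui-7 or NM-403 against their own controls; each point is 1 gene and filled points passed limma at an adjusted p under 0.05. In the Mitsui-7 panels the filled points of P450 families 2 to 4, Fmo and Aox, and Gst lie below 0 and those of Sult above it, and the NM-403 panels hold 1 filled point each.

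Cell type markers moved in the same lobes. The summed linear level of 8 endothelial markers was 24.6 to 35.9 in p53het rats given Mitsui-7 and 42.3 to 50.9 in p53het controls, and 22.9 to 33.8 in WT rats given Mitsui-7 and 41.7 to 49.8 in WT controls, with 5 of 8 markers called lower in each genotype. Of 7 alveolar type 1 markers, 3 fell in p53het and 4 in WT rats given Mitsui-7. Their sums were 114 to 132 in p53het Mitsui-7 lungs and 131 to 180 in p53het controls. In WT lungs the sums were 116 to 133 with Mitsui-7 and 139 to 155 in controls. Club cell markers did not fall: 3 of 8 rose in p53het and 4 of 8 in WT rats, and their summed level of 51.7 to 74.5 in p53het Mitsui-7 lungs overlapped 50.3 to 76.8 in p53het controls, as did 58.3 to 70.5 in WT Mitsui-7 lungs and 50.4 to 65.1 in WT controls. None of 8 alveolar type 2 markers was called by limma in either genotype, with 0 at an unadjusted p under 0.05 in each. Of 7 ciliated cell markers, 3 rose in p53het and 4 in WT rats, and of 8 macrophage markers 2 and 4 rose, with no fall in either list. Of 6 cardiac markers, 4 fell in p53het and 3 in WT rats, and their sum was 4.7 to 8.76 in p53het Mitsui-7 lungs and 8.44 to 14.3 in p53het controls, and 4.92 to 8.96 in WT Mitsui-7 lungs and 11.3 to 13.4 in WT controls. Fibroblast marker sums were 25.3 to 34.4 in p53het Mitsui-7 lungs and 19.6 to 27.6 in p53het controls, and 28.6 to 36 and 22.7 to 27 in WT lungs, with 1 of 6 markers up and 1 down in p53het and 2 up and 2 down in WT rats. Of 6 mesothelial markers, 1 rose and 1 fell in p53het and 1 rose and 3 fell in WT rats, and of 4 adipocyte markers 1 rose in each genotype. Mesothelial sums were 5.3 to 6.98 in p53het Mitsui-7 lungs and 3.37 to 4.57 in p53het controls. In WT lungs they were 3.85 to 5.13 and 3.72 to 4.85. Adipocyte sums were 0.828 to 1.42 and 0.126 to 0.241 in p53het, and 0.628 to 1.92 and 0.104 to 0.849 in WT lungs. Ciliated sums were 5.63 to 7.76 and 4.36 to 5.24 in p53het, and 6.22 to 9.19 and 4.24 to 6.16 in WT lungs. Of 7 hepatocyte markers only Serpina1 and Ttr were measured, and Alb was not. The part of these cell types in the enzyme results was not tested.

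Among the 38 measured P450 genes of families 2 to 4, 7 fell and none rose in WT rats given Mitsui-7, and 6 fell and none rose in p53het rats. Cyp2a3, the rat lung and nasal relative of the nicotine and coumarin hydroxylases, had the largest difference of these. Its level in p53het rats given Mitsui-7 was -7.81 at the lowest, -6.34 at the median and -5.62 at the highest, against -4.76, -4.24 and -2.96 in p53het controls. In WT rats given Mitsui-7 the lowest, median and highest were -6.39, -5.2 and -4.55, against -4.16, -3.77 and -3.19 in WT controls. All 6 Mitsui-7 rats of each genotype lay below all 6 of their controls, and 2 of the 6 p53het Mitsui-7 arrays were not well above background. The fall was -2.44 ± 0.36 (SE, 5.44-fold, limma adjusted p = 1.51e-05) in p53het and -1.53 ± 0.36 (2.88-fold, adjusted p = 0.00327) in WT rats. Within slides the difference ran between -4.27 and -1.66 in p53het and between -1.98 and -1.14 in WT rats. With normexp background correction, which pulls dim probes together, the falls were -0.84 and -0.65 and remained called (adjusted p = 0.00326 and 0.0207). Cyp2a3 lies on chromosome 1, and the 60 bases of its probe are shown in lower case because they define what was measured.
Cyp2a3 probe: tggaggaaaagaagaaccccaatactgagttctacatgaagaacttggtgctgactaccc

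Cyp4b1, a lung P450 that activates furans and aromatic amines in rodents, was 3.47, 3.69 and 4.2 (lowest, median, highest) in p53het rats given Mitsui-7 and 4.31, 4.62 and 4.71 in p53het controls. In WT rats it was 3.75, 4.04 and 4.34 with Mitsui-7 and 4.48, 4.77 and 4.95 in controls. The groups did not overlap in either genotype, and Cyp4b1 fell by 0.78 ± 0.13 in p53het (SE, 1.72-fold, adjusted p = 0.000117) and by 0.71 ± 0.13 in WT rats (1.63-fold, adjusted p = 0.000296). Cyp2f4, the rat naphthalene-activating enzyme of club cells, fell by 0.68 ± 0.13 in p53het and by 0.53 ± 0.13 in WT rats (adjusted p = 0.000431 and 0.004). Its levels were 1.54 to 2.35 with Mitsui-7 and 2.16 to 2.82 in controls of the p53het rats, which overlapped, and 1.86 to 2.28 against 2.49 to 2.94 in WT rats, which did not.

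The other falls of this group were smaller or held in 1 genotype. Cyp2d4, a rat enzyme of the family that hydroxylates many drugs, fell by 1.03 ± 0.18 in p53het (adjusted p = 0.000191) and by 0.58 ± 0.18 in WT rats (adjusted p = 0.0288). Cyp2e1, which oxidises ethanol and small solvents, fell in p53het rats (-0.8 ± 0.25, adjusted p = 0.0306) and measured -0.54 ± 0.25 in WT rats (adjusted p = 0.153), where the slide block called it lower (-0.57, adjusted p = 0.0324). Cyp2j3, one of the arachidonic acid epoxygenases, fell in p53het rats (-0.48 ± 0.15, adjusted p = 0.034) and measured -0.34 ± 0.15 in WT rats (adjusted p = 0.148), whereas its relative Cyp2j4 fell in WT rats (-0.45 ± 0.15, adjusted p = 0.0378) and measured -0.43 ± 0.15 in p53het rats (adjusted p = 0.051). Cyp2b2, a phenobarbital-inducible P450 of rat liver, fell in WT rats (-0.47 ± 0.14, adjusted p = 0.0256) and measured -0.39 ± 0.14 in p53het rats (adjusted p = 0.0696). Cyp2g1, an olfactory P450, was called lower in WT rats (-0.98 ± 0.32, adjusted p = 0.0399), but it was well above background on 2 of 6 Mitsui-7 and 3 of 6 control arrays and turned to 0.05 (adjusted p = 0.841) with normexp correction. Cyp2s1, an epithelial P450, measured -0.05 ± 0.13 in p53het and -0.11 ± 0.13 in WT rats given Mitsui-7 (adjusted p = 0.868 and 0.642). Cyp2b1 was not on the array under that name.

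In WT rats the calls of Cyp2b2, Cyp2d4, Cyp2g1 and Cyp2j4 were lost when single arrays were left out. Cyp2b2 then had adjusted p-values of 0.0687 to 0.0804 (Mitsui-7 replicates 4 or 6, control replicate 5), Cyp2d4 0.0551 to 0.0754 (Mitsui-7 replicates 4 or 6, control replicates 2 or 5), Cyp2j4 0.0589 to 0.122 (Mitsui-7 replicates 2 or 4, control replicates 1, 3 or 6) and Cyp2g1 0.0518 to 0.132 (Mitsui-7 replicates 1, 3, 4 or 5, control replicates 1, 5 or 6). In p53het rats this held for Cyp2e1, with 0.0501 to 0.0796 (Mitsui-7 replicates 1, 3, 4 or 5, control replicates 3, 4 or 5), and for Cyp2j3, with 0.0548 to 0.115 (Mitsui-7 replicates 1, 2 or 5, control replicates 1, 3, 4 or 5). The Cyp2j3 call was also lost with quantile normalization (0.0697), array median scaling (0.0598) and no filter on dim probes (0.0545), that of Cyp2j4 with normexp correction (0.0532) and no filter (0.0538), and that of Cyp2d4 in WT rats with normexp correction (0.0644). Members of the Cyp2 clusters are close in sequence, so a probe may also bind a relative. The RefSeq promoters of Cyp2b2, Cyp2g1, Cyp2a3 and Cyp2f4 lie between bases 90722031 and 91543767 of chromosome 1 (GRCr8), the Cyp2 gene cluster of that chromosome.

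Of 13 other P450 genes, Cyp7b1 rose in both genotypes and Cyp27a1 fell in 1. Cyp7b1 hydroxylates oxysterols, among them 25-hydroxycholesterol, and is known in immune cell guidance. It was -2.64, -2.32 and -1.94 (lowest, median, highest) in p53het rats given Mitsui-7 and -3.07, -2.86 and -2.73 in p53het controls, and -2.2, -1.97 and -1.63 in WT rats given Mitsui-7 and -3.2, -2.95 and -2.88 in WT controls. All Mitsui-7 rats lay above all controls of their genotype, with a rise of 0.56 ± 0.14 in p53het (SE, 1.47-fold, adjusted p = 0.00854) and 1.05 ± 0.14 in WT rats (2.07-fold, adjusted p = 3.18e-06). Cyp27a1, the mitochondrial sterol 27-hydroxylase, fell in p53het rats (-0.47 ± 0.15, adjusted p = 0.0313) and measured -0.3 ± 0.15 in WT rats (adjusted p = 0.183). With the slide block Cyp27a1 was called lower in WT rats too (-0.35, adjusted p = 0.0195), and Cyp51 was called higher in both genotypes (0.57, adjusted p = 0.00755 in p53het and 0.7, adjusted p = 0.00126 in WT rats). The Cyp27a1 call was lost with quantile normalization (adjusted p = 0.0534), without the filter on dim probes (0.0511) and without p53het Mitsui-7 replicate 3, 4 or 5 or control replicate 3 or 5 (0.0598 to 0.101).

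**Figure D2:**
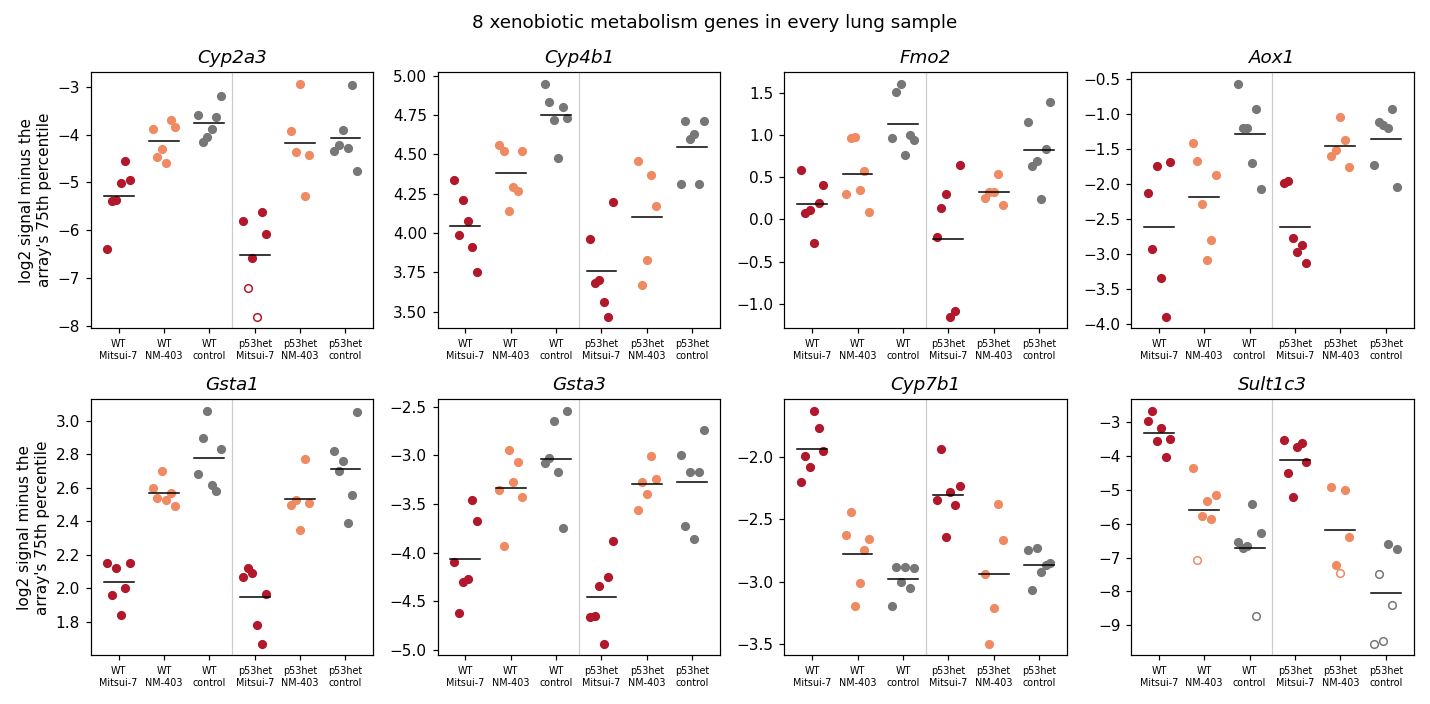
Log2 level minus the 75th percentile of the array (vertical axis) in each rat for 8 enzymes, with the 6 groups along the horizontal axis, Mitsui-7 and NM-403 left of the control of their genotype; points are rats, open points were not well above background and bars are group means. For Cyp2a3 and Cyp4b1 every Mitsui-7 point lies below the controls of its genotype, and for Sult1c3 and Cyp7b1 every Mitsui-7 point lies above them.

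Flavin monooxygenases and aldehyde oxidase 1 fell together with Mitsui-7: 3 of 8 measured Fmo and Aox genes fell and none rose in p53het rats, and 4 of 8 fell and none rose in WT rats. Aox1, the molybdenum enzyme that oxidises aldehydes and nitrogen rings, was -3.13, -2.82 and -1.96 (lowest, median, highest) in p53het rats given Mitsui-7 and -2.05, -1.18 and -0.92 in p53het controls. In WT rats it was -3.9, -2.53 and -1.69 with Mitsui-7 and -2.07, -1.2 and -0.56 in controls. In each genotype 4 of 6 Mitsui-7 rats lay below all controls and the other 2 overlapped them. Aox1 fell by 1.25 ± 0.33 in p53het (SE, 2.38-fold, adjusted p = 0.0119) and by 1.35 ± 0.33 in WT rats (2.54-fold, adjusted p = 0.00561).

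Fmo2 was -1.15, -0.04 and 0.65 (lowest, median, highest) in p53het rats given Mitsui-7 and 0.24, 0.76 and 1.39 in p53het controls, and -0.28, 0.16 and 0.59 in WT rats given Mitsui-7 and 0.76, 0.98 and 1.61 in WT controls. The WT groups did not overlap, and 4 of 6 p53het Mitsui-7 rats lay below all p53het controls. Fmo2 fell by 1.05 ± 0.24 in p53het (adjusted p = 0.00362) and by 0.95 ± 0.24 in WT rats (adjusted p = 0.00754). Fmo1, the main form of rat liver and kidney, fell by 0.82 ± 0.2 in p53het and by 0.75 ± 0.2 in WT rats (adjusted p = 0.00534 and 0.00952), with all 6 p53het Mitsui-7 rats (1.15 to 1.87) below the p53het controls (1.92 to 2.53). Fmo6, whose gene neighbours Fmo1 and Fmo2 on chromosome 13, fell in WT rats (-1 ± 0.27, adjusted p = 0.0111) and measured -0.66 ± 0.27 in p53het rats (adjusted p = 0.116). The Fmo6 fall was -0.5 with normexp correction and no longer called (adjusted p = 0.0899).

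Aldehyde dehydrogenases changed both ways. Of 19 measured, 2 fell and 3 rose in p53het rats given Mitsui-7, and 1 fell and 3 rose in WT rats. Aldh1a1, which makes retinoic acid and clears lipid aldehydes, was 2.13, 2.45 and 3.03 (lowest, median, highest) in p53het rats given Mitsui-7 and 2.8, 3.14 and 3.71 in p53het controls, and 2.42, 2.8 and 3.06 in WT rats given Mitsui-7 and 3.08, 3.35 and 3.69 in WT controls. Every WT Mitsui-7 rat and 4 of 6 p53het Mitsui-7 rats lay below all their controls, and Aldh1a1 fell by 0.73 ± 0.16 in p53het (SE, adjusted p = 0.00169) and by 0.59 ± 0.16 in WT rats (adjusted p = 0.0095). Aldh6a1, a mitochondrial enzyme of valine and pyrimidine breakdown, fell in p53het rats (-0.43 ± 0.11, adjusted p = 0.0124) and measured -0.23 ± 0.11 in WT rats (adjusted p = 0.19).

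The 3 Aldh genes that rose were the same in both genotypes. Aldh1l2, the mitochondrial 10-formyltetrahydrofolate dehydrogenase, was -4.06, -3.18 and -2.83 in p53het rats given Mitsui-7 and -4.91, -4.23 and -3.66 in p53het controls, and -3.71, -3.12 and -2.38 in WT rats given Mitsui-7 and -4.88, -4.46 and -3.75 in WT controls. All WT Mitsui-7 rats and 5 of 6 p53het Mitsui-7 rats lay above all their controls, and the rise was 0.92 ± 0.26 in p53het (SE, 1.89-fold, adjusted p = 0.0191) and 1.28 ± 0.26 in WT rats (2.42-fold, adjusted p = 0.00089). The p53het call was lost with normexp correction (0.57, adjusted p = 0.0852) and without Mitsui-7 replicate 5 (0.82, adjusted p = 0.059) or control replicate 1 (0.78, adjusted p = 0.057). Aldh3b1, which oxidises lipid-derived aldehydes at membranes, rose by 0.35 ± 0.08 in p53het and 0.57 ± 0.08 in WT rats (adjusted p = 0.00541 and 1.33e-05), with no overlap in either. Aldh18a1, the proline-making pyrroline-5-carboxylate synthase, rose by 0.37 ± 0.09 in p53het and 0.39 ± 0.09 in WT rats (adjusted p = 0.00508 and 0.00256), and averaging its 2 probes ended both calls (0.2 and 0.32, adjusted p = 0.252 and 0.0534). For Aldh3a1, which protects epithelia from aldehydes, the brighter probe measured -0.04 ± 0.13 in p53het and -0.27 ± 0.13 in WT rats (adjusted p = 0.902 and 0.158), whereas the dimmer probe measured -0.71 ± 0.17 and -0.87 ± 0.17 (adjusted p = 0.00559 and 0.000575). With the slide block the brighter probe measured -0.1 in p53het rats (adjusted p = 0.447) and was called lower in WT rats (-0.31, adjusted p = 0.00828).

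Glutathione transferases fell with Mitsui-7 in 5 of 19 measured genes in each genotype, the same 5 genes, and none rose. These were Gsta1, Gsta3 and Gsta4 of the alpha class and Gstm2 and Gstm7 of the mu class, enzymes that couple electrophiles to glutathione. Gsta1 was 1.67, 2.02 and 2.12 (lowest, median, highest) in p53het rats given Mitsui-7 and 2.39, 2.73 and 3.05 in p53het controls, and 1.84, 2.06 and 2.15 in WT rats given Mitsui-7 and 2.58, 2.76 and 3.06 in WT controls. Neither pair of groups overlapped, and Gsta1 fell by 0.76 ± 0.1 in p53het (SE, 1.7-fold, adjusted p = 2.52e-06) and by 0.74 ± 0.1 in WT rats (1.67-fold, adjusted p = 2.46e-06). Gsta3 was -4.94, -4.5 and -3.88 in p53het rats given Mitsui-7 and -3.86, -3.17 and -2.74 in p53het controls, and -4.62, -4.18 and -3.46 in WT rats given Mitsui-7 and -3.75, -3.05 and -2.54 in WT controls. The p53het groups did not overlap and 4 of 6 WT Mitsui-7 rats lay below all WT controls, with falls of 1.17 ± 0.22 in p53het (2.26-fold, adjusted p = 0.000329) and 1.03 ± 0.22 in WT rats (2.05-fold, adjusted p = 0.00104).

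Gsta4, which conjugates 4-hydroxynonenal from lipid peroxidation, fell by 0.67 ± 0.11 in p53het and by 0.52 ± 0.11 in WT rats (adjusted p = 8.4e-05 and 0.00119). Gstm2 fell by 0.86 ± 0.12 in p53het and by 0.65 ± 0.12 in WT rats (adjusted p = 6.42e-06 and 0.000231). Gstm7 fell by 0.98 ± 0.14 in p53het and by 0.62 ± 0.14 in WT rats (adjusted p = 6.46e-06 and 0.00187). For all 3 genes every Mitsui-7 rat lay below every control of its genotype. With normexp correction the falls of Gsta3 were -0.72 and -0.65 in p53het and WT rats and those of Gstm7 -0.62 and -0.38, all still called. Other widely studied transferases did not pass the test in p53het or WT rats: Gstp1 measured -0.35 ± 0.12 and -0.24 ± 0.12 (adjusted p = 0.0592 and 0.209), Gstm1 -0.16 ± 0.12 and 0.23 ± 0.12 (adjusted p = 0.421 and 0.214), Gsto1 0.18 ± 0.21 and 0.4 ± 0.21 (adjusted p = 0.659 and 0.227), and Gstt1 -0.22 ± 0.13 and -0.16 ± 0.13 (adjusted p = 0.329 and 0.513). Gstp1 was called lower in both genotypes with the slide block (-0.26, adjusted p = 0.005 in p53het and -0.18, adjusted p = 0.0497 in WT rats). Gsta5, not among the 5 above, was called lower in WT rats with the block (-0.71, adjusted p = 0.000141). It was also lower with Mitsui-7 than with NM-403 in WT rats under the block (-0.59, adjusted p = 0.00342). Alpha-class genes are near copies of one another, so their probes may share signal.

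Of 5 measured Ugt genes, Ugt1a6, which glucuronidates small phenols, rose in both genotypes. Its levels were 0.07, 0.23 and 0.55 (lowest, median, highest) in p53het rats given Mitsui-7 and -0.27, -0.12 and 0 in p53het controls, and 0.1, 0.38 and 0.63 in WT rats given Mitsui-7 and -0.3, -0.12 and 0.09 in WT controls. No Mitsui-7 rat overlapped its controls, and the rise was 0.38 ± 0.1 in p53het (SE, adjusted p = 0.0112) and 0.47 ± 0.1 in WT rats (adjusted p = 0.00142). The second, dimmer Ugt1a6 probe measured -0.08 ± 0.19 in p53het and 0.22 ± 0.19 in WT rats (adjusted p = 0.839 and 0.5), and averaging the probes ended both calls (0.15 and 0.35, adjusted p = 0.5 and 0.0577). Ugt1a genes share exons, so a probe can read several of them.

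Sulfotransferases held the largest rise. Of 6 measured Sult genes, 1 rose in p53het and 3 in WT rats given Mitsui-7, and none fell. Sult1c3, of a cytosolic phenol sulfotransferase subfamily, was -5.23, -3.97 and -3.54 (lowest, median, highest) in p53het rats given Mitsui-7 and -9.54, -7.94 and -6.61 in p53het controls. In WT rats it was -4.03, -3.36 and -2.68 with Mitsui-7 and -8.71, -6.59 and -5.42 in controls. All Mitsui-7 rats of each genotype lay above all controls and were well above background, as were 2 of 6 p53het and 5 of 6 WT controls. Sult1c3 rose by 3.9 ± 0.54 in p53het (SE, 14.9-fold, adjusted p = 6.37e-06) and 3.4 ± 0.54 in WT rats (10.5-fold, adjusted p = 3.26e-05), and its second probe rose by 2.89 ± 0.39 and 3.91 ± 0.39. The size of the p53het rise rests on control signals mostly not well above background. Normexp correction gave 1.01 in p53het and 1.47 in WT rats, both still called (adjusted p = 0.0011 and 3.74e-06).

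Sult1c2 and Sult1c2a, close relatives whose probes may share signal, rose in WT rats. Sult1c2 was -5.47, -5.13 and -4.02 in WT rats given Mitsui-7 and -6.51, -6.28 and -5.31 in WT controls, a rise of 1.13 ± 0.34 (SE, adjusted p = 0.0226). In p53het rats it measured 0.46 ± 0.34 (adjusted p = 0.436). Sult1c2a was well above background in 5 of 6 WT Mitsui-7 rats and in no WT control, and was at least 3.04-fold higher with Mitsui-7 (adjusted p = 0.0225), the bound being set by the dimmest signal well above background on each control array. With normexp correction the differences were 0.49 and 0.55 and no longer called (adjusted p = 0.0811 and 0.0839), and averaging probes gave 1.97 for Sult1c2. The Sult1c2 call was also lost without WT Mitsui-7 replicate 4 or 5 or control replicate 2, 3 or 5 (0.94 to 1.07, adjusted p = 0.0524 to 0.0838), and that of Sult1c2a without Mitsui-7 replicate 4 or 5 or control replicate 2 (1.91 to 2.06, adjusted p = 0.0539 to 0.0767). Sult1a1, the broad phenol sulfotransferase, measured -0.29 ± 0.15 in p53het and -0.33 ± 0.15 in WT rats (adjusted p = 0.241 and 0.161) and was called lower with the slide block (-0.38 and -0.37, adjusted p = 0.0167 and 0.0186).

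**Figure D3:**
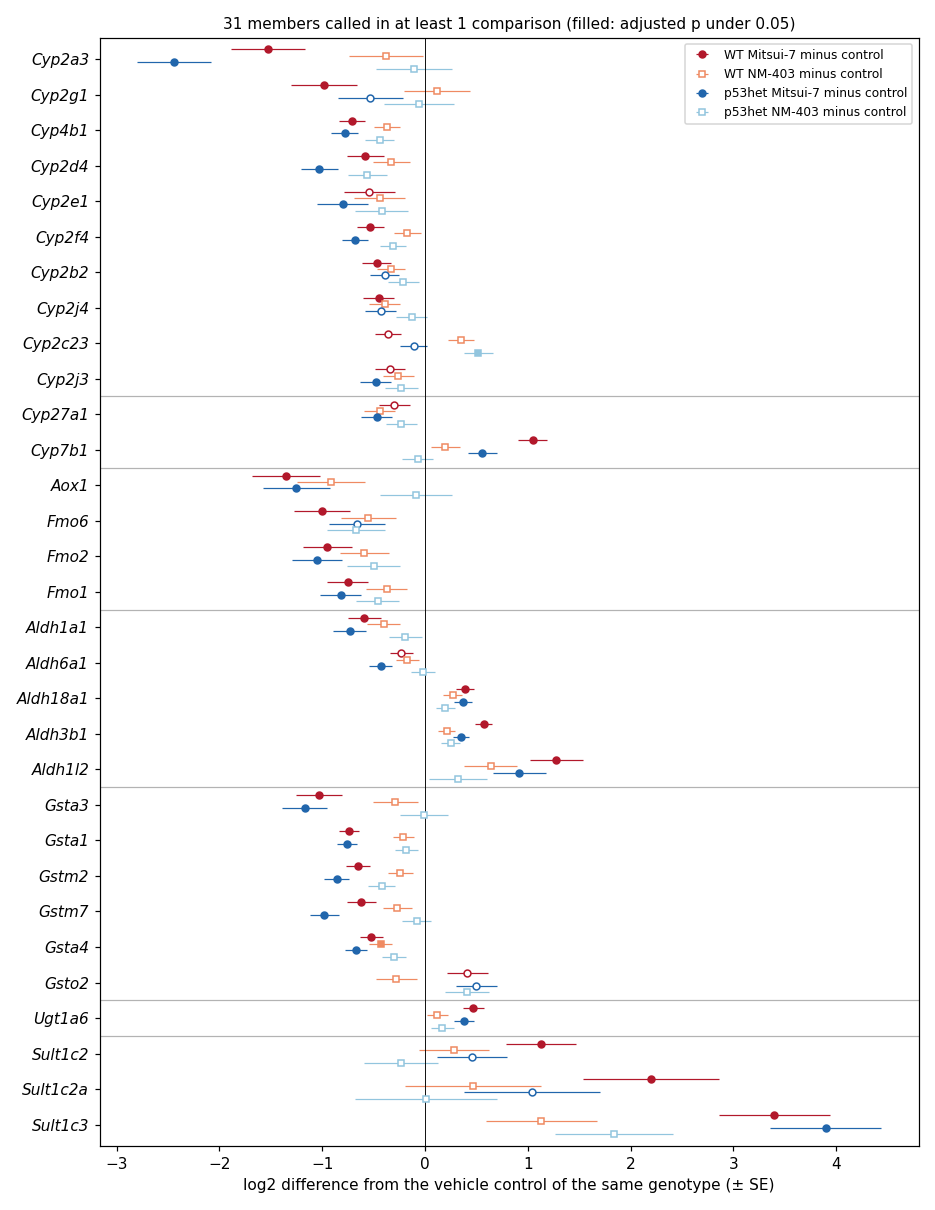
Log2 difference ± SE (horizontal axis, log2 units) of the 31 enzymes called in any comparison (vertical axis), for Mitsui-7 and NM-403 against the controls of each genotype; filled points passed limma at an adjusted p under 0.05. Sult1c3 lies farthest right, at 3.9 in p53het and 3.4 in WT rats given Mitsui-7, and Cyp2a3 farthest left, at -2.44 and -1.53.

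With NM-403, 1 of the 108 enzymes was called in each genotype. Cyp2c23, an arachidonic acid epoxygenase of rat kidney, rose in p53het rats and no enzyme fell, where 1.28% of all genes were called higher and 0.241% lower. Gsta4 fell in WT rats and no enzyme rose, where 0.858% of all genes were called lower and 2.28% higher. At an unadjusted p under 0.05 limma gave 15 enzymes in p53het and 20 in WT rats. These counts are not set beside the all-gene counts at that threshold, so they do not show whether the enzymes differ from other genes. The median difference of the enzymes was -0.14 in p53het and -0.07 in WT rats, beside -0.07 and 0 over all genes. Below 0 lay 75% of the enzymes in p53het and 60.2% in WT rats, beside 62.8% and 50% of all genes. The Mitsui-7 and NM-403 comparisons of a genotype share their controls. Endothelial marker sums were 33.7 to 40.5 in p53het rats given NM-403 and 42.3 to 50.9 in p53het controls, which did not overlap. In WT rats they were 32.1 to 41.8 with NM-403 and 41.7 to 49.8 in controls. None of the 8 endothelial markers taken singly was called by limma with NM-403 in either genotype. Alveolar type 1 marker sums were 116 to 143 with NM-403 and 131 to 180 in controls of the p53het rats, which overlapped. In WT rats these sums were 115 to 139 with NM-403 and 139 to 155 in controls.

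Cyp2c23 was -0.03, 0.84, 0.21, 0.41 and 0.43 in the 5 p53het rats given NM-403, against -0.58, -0.07 and 0.16 (lowest, median, highest) in p53het controls. Of the 5, 4 lay above all controls, and the rise was 0.52 ± 0.14 (SE, 1.44-fold, adjusted p = 0.0489). In WT rats given NM-403 it measured 0.35 ± 0.13 (adjusted p = 0.167). The p53het call was lost with normexp correction (adjusted p = 0.0884), without the filter on dim probes (0.0818) and without any of p53het NM-403 replicates 2 to 5 or control replicates 2 to 5 (0.41 to 0.56, adjusted p = 0.0638 to 0.231). Gsta4 was 1.24, 1.5 and 1.89 in WT rats given NM-403 and 1.71, 1.94 and 2.04 in WT controls, with 5 of 6 NM-403 rats below all controls, and fell by 0.43 ± 0.11 (SE, adjusted p = 0.026). In p53het rats given NM-403 it measured -0.3 ± 0.12 (adjusted p = 0.267). The WT call was lost with array median scaling (adjusted p = 0.0709) and without NM-403 replicate 4 or 5 or control replicate 3 or 5 (-0.4 to -0.38, adjusted p = 0.062 to 0.0777).

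The slide block changed the NM-403 counts most. It called 3 enzymes higher and 4 lower in p53het rats, beside 2.22% and 1.63% of all genes, and 2 higher and 6 lower in WT rats, beside 4.4% and 3.19% of all genes. In both genotypes it called Aldh7a1, which oxidises lysine-derived aldehydes, higher (0.22, adjusted p = 0.0326 in p53het and 0.2, adjusted p = 0.0283 in WT rats), and Aldh1a2, the embryonic retinoic acid enzyme, lower (-0.59, adjusted p = 0.00982 and -0.62, adjusted p = 0.00299). Gsta4 was also lower in both (-0.34, adjusted p = 0.0289 and -0.39, adjusted p = 0.00516). In p53het rats the block added Sult1c3 (1.85, adjusted p = 0.0274) with Cyp2d4 and Gstm2 lower (-0.56 and -0.43, adjusted p = 0.0329 and 0.0215). In WT rats it added Cyp51, the lanosterol demethylase of cholesterol synthesis, as higher (0.61, adjusted p = 0.0121). Cyp27a1, Cyp2b21, Cyp2j4 and Gstp1 were added as lower in WT rats (-0.44, -0.55, -0.38 and -0.27, adjusted p = 0.0105, 0.0204, 0.0355 and 0.0129). Aldh1a2 and Cyp2b21 were not particular to NM-403. The block also called them lower in WT rats given Mitsui-7 (-0.6 and -0.48, adjusted p = 0.00115 and 0.019). Between the nanotubes in WT rats they measured 0.02 and 0.07 with the block (adjusted p = 0.945 and 0.835).

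Set directly against NM-403, Mitsui-7 gave 1 enzyme higher and 5 lower in p53het rats, where 1.04% and 0.315% of all genes were called higher and lower. In WT rats it gave 5 higher and 2 lower, where 3% and 0.474% of all genes were called. Cyp7b1 was higher with Mitsui-7 in both genotypes (0.63 ± 0.15, adjusted p = 0.021 in p53het and 0.85 ± 0.14, adjusted p = 0.000276 in WT rats). Gsta1 was lower with Mitsui-7 in both (-0.58 ± 0.11, adjusted p = 0.00106 and -0.54 ± 0.1, adjusted p = 0.000896), with no overlap between the groups of either genotype. How often groups separated over all genes called between the nanotubes was not counted. Cyp2c23 was lower with Mitsui-7 in both as well (-0.63 ± 0.14, adjusted p = 0.0108 and -0.71 ± 0.13, adjusted p = 0.000866). Its level in WT rats was -0.78 to -0.31 with Mitsui-7 and 0.05 to 0.38 with NM-403, and -0.43 to 0.28 in WT controls, which overlapped both.

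The other p53het calls were the largest falls between the nanotubes. Cyp2a3 was -7.81 to -5.62 with Mitsui-7 against -3.92, -4.37, -2.93, -5.28 and -4.42 in the 5 p53het rats given NM-403, a difference of -2.34 ± 0.37 (SE, 5.05-fold, adjusted p = 0.000226) that was -0.69 and not called with normexp correction (adjusted p = 0.0845). Gsta3 and Gstm7 were lower by 1.16 ± 0.23 and 0.9 ± 0.14 (adjusted p = 0.00277 and 0.000189). No Mitsui-7 rat overlapped an NM-403 rat for any of these 3 genes, again without a count over all called genes. In WT rats the same differences were -1.14 ± 0.36, -0.74 ± 0.22 and -0.35 ± 0.14 and did not pass (adjusted p = 0.0742, 0.0501 and 0.21). With the slide block Gsta3 and Gstm7 passed in WT rats (-0.67 and -0.42, adjusted p = 0.0466 and 0.0457) and Cyp2a3 did not (adjusted p = 0.0643). Sult1c3 was higher with Mitsui-7 in WT rats (2.27 ± 0.54, adjusted p = 0.0107), and measured 2.06 ± 0.57 in p53het rats (adjusted p = 0.0653). Aldh3b1 (0.35 ± 0.08, adjusted p = 0.0116), Ugt1a6 (0.35 ± 0.1, adjusted p = 0.0449) and Gsto2 (0.7 ± 0.2, adjusted p = 0.046) were also higher with Mitsui-7 in WT rats. Gsto2 was well above background on 5 of 6 Mitsui-7 and 2 of 6 NM-403 arrays and measured 0.18 with quantile normalization and 0.11 with normexp correction, neither called. Array median scaling ended the WT calls of Aldh3b1, Ugt1a6 and Gsto2 (adjusted p = 0.164, 0.194 and 0.118), as did normexp correction for Aldh3b1 and Ugt1a6 (0.0616 and 0.0738). The Ugt1a6 call was also lost in the authors' matrix (0.07), with the mean of probes (0.214) and without the filter on dim probes (0.0768), which ended that of Gsto2 too (0.0682).

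The split of these direct comparisons depended on scaling. In WT rats the 5 higher and 2 lower enzymes became 4 and 5 with quantile normalization and 2 and 6 with array median scaling. Over all genes 734 were higher and 116 lower in WT rats, against 500 and 185 with quantile normalization and 460 and 196 with median scaling. With the slide block 11 were higher and 9 lower in WT rats and 2 higher and 9 lower in p53het rats, where 4.93% and 1.52%, and 1.48% and 0.56%, of all genes were called higher and lower. The Cyp2c23 call in p53het rats was lost without NM-403 replicate 2 (-0.51, adjusted p = 0.0692), and that of Cyp7b1 without NM-403 replicate 2 or 3 or Mitsui-7 replicate 2 (0.49 to 0.57, adjusted p = 0.069 to 0.123). The WT call of Gsto2 was lost without Mitsui-7 replicate 1, 3, 5 or 6 or NM-403 replicate 1, 2, 4 or 6 (0.57 to 0.72, adjusted p = 0.0596 to 0.151), and that of Ugt1a6 without Mitsui-7 replicate 3, 4, 5 or 6 or NM-403 replicate 1, 2, 3, 4 or 6 (0.3 to 0.37, adjusted p = 0.0515 to 0.15).

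**Figure D4:**
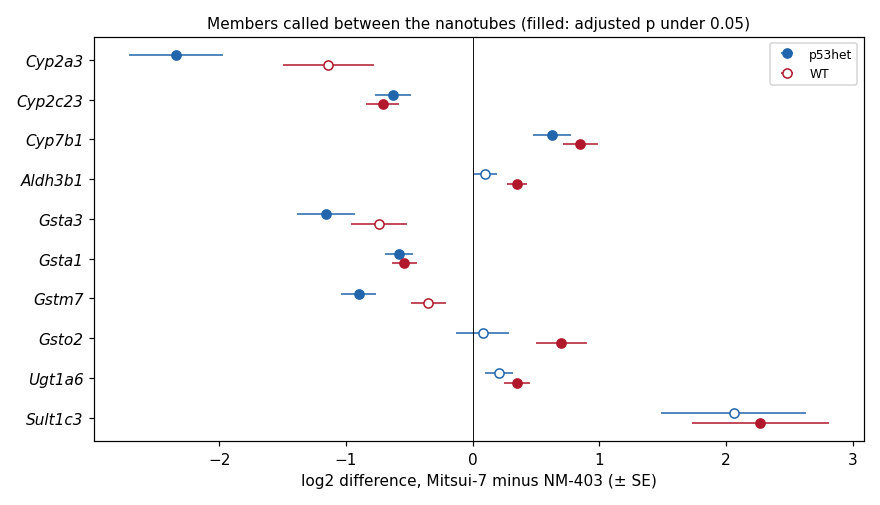
Mitsui-7 minus NM-403 difference ± SE (horizontal axis, log2 units) of the 10 enzymes called between the nanotubes in either genotype (vertical axis), with p53het and WT rats side by side; filled points passed limma at an adjusted p under 0.05. Cyp2a3 lies lowest, at -2.34 in p53het and -1.14 in WT rats, and Sult1c3 highest, at 2.06 and 2.27.

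Genotype gave no call. Between p53het and WT controls limma called 0 of the 108 enzymes and 0% of all genes, with 4 enzymes and 483 genes at an unadjusted p under 0.05. The difference of the Mitsui-7 effects, p53het minus WT, gave 0 enzymes and 0% of all genes (3 enzymes and 819 genes unadjusted), and that of the NM-403 effects 0 and 0% (3 enzymes and 411 genes unadjusted). Counts stayed at 0 with the slide block. For Cyp2a3 the difference of the Mitsui-7 effects was -0.92 ± 0.51 (unadjusted p = 0.0798 in limma) and for Cyp7b1 -0.49 ± 0.2 (unadjusted p = 0.0224), both with an adjusted p = 1. Sult1c3 measured -1.32 ± 0.54 in p53het against WT controls (unadjusted p = 0.0207, adjusted p = 1). A p-value that misses the threshold does not show that the genotypes respond alike.

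Promoter sequences were available from RefSeq (GRCr8) for 86 of the 108 enzymes and 28 of the 31 called in any comparison. The 250 bases before each gene start were searched on both strands for the core of the dioxin response element, GCGTG, bound by the aryl hydrocarbon receptor, and for the antioxidant response element, TGACNNNGC, bound by Nrf2. The first was in 25.9% of all 33469 promoters, in 22 of 86 enzymes (25.6%) and in 3 of 28 called enzymes (10.7%), namely Cyp2b2, Gsta4 and Ugt1a6, counting 1 RefSeq entry a gene. The second entry of Gsta3 holds it as well, 233 bases before the start. The second was in 10.1% of all promoters, in 12 of 86 enzymes (14%) and in 3 of 28 called enzymes (10.7%). These 3 were Cyp4b1, Gsta3 and Gstm7, with the match 22, 17 and 14 bases before the start. They were among the 13 enzymes that fell with Mitsui-7 in both genotypes. A match is a description of these letters and not a bound site. The promoters shown are those of the 3 genes with a TGACNNNGC match, of Ugt1a6, which rose and holds GCGTG 133 bases before the start, and of Cyp2a3, the largest fall, which holds neither. They lie at chr5:134393117-134393366 on the minus strand (Cyp4b1), chr9:31154739-31154988 plus (Gsta3, the first of 2 RefSeq entries), chr2:198260320-198260569 minus (Gstm7), chr9:96194768-96195017 plus (Ugt1a6) and chr1:91299334-91299583 plus (Cyp2a3), and capitals mark the match.
Cyp4b1: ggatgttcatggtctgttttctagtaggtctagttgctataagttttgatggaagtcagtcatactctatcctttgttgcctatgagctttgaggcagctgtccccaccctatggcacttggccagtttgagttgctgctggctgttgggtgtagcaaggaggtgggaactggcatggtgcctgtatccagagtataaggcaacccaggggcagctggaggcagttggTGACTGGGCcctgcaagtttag
Gsta3: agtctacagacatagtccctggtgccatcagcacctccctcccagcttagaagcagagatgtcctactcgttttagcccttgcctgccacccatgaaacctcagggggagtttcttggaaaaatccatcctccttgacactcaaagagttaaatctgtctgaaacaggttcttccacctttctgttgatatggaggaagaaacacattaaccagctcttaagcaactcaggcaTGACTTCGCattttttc
Gstm7: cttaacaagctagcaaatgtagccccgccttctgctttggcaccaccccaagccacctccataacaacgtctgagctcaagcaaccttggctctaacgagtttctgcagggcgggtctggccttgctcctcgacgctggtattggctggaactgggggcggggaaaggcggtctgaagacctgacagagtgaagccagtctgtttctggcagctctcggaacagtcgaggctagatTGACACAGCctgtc
Ugt1a6: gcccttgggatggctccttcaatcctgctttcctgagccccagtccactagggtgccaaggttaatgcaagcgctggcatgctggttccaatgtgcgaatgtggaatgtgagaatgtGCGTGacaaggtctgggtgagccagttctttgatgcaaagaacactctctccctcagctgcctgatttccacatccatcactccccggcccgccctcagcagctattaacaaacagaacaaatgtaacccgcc
Cyp2a3: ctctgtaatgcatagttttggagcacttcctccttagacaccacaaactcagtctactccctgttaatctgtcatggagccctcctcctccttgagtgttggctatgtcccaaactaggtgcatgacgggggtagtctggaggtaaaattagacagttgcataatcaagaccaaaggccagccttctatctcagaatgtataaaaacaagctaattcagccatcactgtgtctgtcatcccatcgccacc

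Cyp1a1, the best known target of the aryl hydrocarbon receptor, stands outside the name rule and was lower in the same lungs. Its level was -9.4, -9.18 and -7.06 (lowest, median, highest) in p53het rats given Mitsui-7 and -7.9, -5.92 and -5.16 in p53het controls, and -9.71, -8.75 and -6.87 in WT rats given Mitsui-7 and -7.93, -5.63 and -4.08 in WT controls. It was well above background on no p53het and 1 WT Mitsui-7 array, against 4 and 5 of 6 control arrays. The level was at least 2.09-fold lower in p53het Mitsui-7 lungs (adjusted p = 0.0247), and the WT difference was -2.79 ± 0.73 (adjusted p = 0.00934), its size resting on Mitsui-7 signals mostly not well above background. Ahrr, the repressor of the receptor, measured -0.67 ± 0.28 in p53het rats (adjusted p = 0.13) and fell in WT rats (-1.28 ± 0.28, adjusted p = 0.00202). Cyp1b1 and the receptor gene Ahr were not called in either genotype.

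Other genes of the pathway were described by lists, to be read beside the 6.49% lower and 5.16% higher in p53het and the 4.8% lower and 8.94% higher in WT rats over all genes. Of 20 measured regulators, 2 fell and 1 rose in p53het and 3 fell and 1 rose in WT rats given Mitsui-7. Nr3c1, the glucocorticoid receptor, fell in both (-0.36 ± 0.08, adjusted p = 0.00144 and -0.35 ± 0.08, adjusted p = 0.00146). Nfe2l2, which codes for Nrf2, measured 0.09 ± 0.08 in p53het rats (adjusted p = 0.539) and rose in WT rats (0.26 ± 0.08, adjusted p = 0.0246). Nqo1 (-0.31 ± 0.15 and -0.09 ± 0.15, adjusted p = 0.2 and 0.786) and Ephx1, which are among its targets, were not called in either. The glutathione genes Gss and Gsr, given below, rose in WT rats. Whether Nrf2 targets changed as a set was not tested. The drug-sensing receptors Nr1i2 and Nr1i3 and the P450 reductase Por were not called in either genotype.

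Of 26 measured phase I partners, 2 fell and 1 rose in p53het and 1 fell and 1 rose in WT rats given Mitsui-7. Cyb5r3, the reductase of cytochrome b5, fell in both (-0.33 ± 0.11, adjusted p = 0.047 and -0.48 ± 0.11, adjusted p = 0.0032). Dhrs9, a retinol dehydrogenase, rose in all 4 exposed groups, by 1.43 ± 0.24 and 1.66 ± 0.25 with Mitsui-7 and NM-403 in p53het rats and by 1.29 ± 0.24 and 2.31 ± 0.24 in WT rats (adjusted p = 9.33e-05, 0.000195, 0.00023 and 3.1e-07). Of 18 other phase II genes, none was called in p53het rats (4 at an unadjusted p under 0.05 in limma) and Gss and Gsr, which make and recycle glutathione, rose in WT rats (0.55 ± 0.13 and 0.38 ± 0.11, adjusted p = 0.00415 and 0.0189). Of 14 transporters, 2 fell and 1 rose in p53het and 4 fell and 1 rose in WT rats. The prostaglandin and organic anion carriers Slco2a1 and Slco2b1 fell in both genotypes (-0.56 ± 0.15 and -0.67 ± 0.15 in p53het, -0.51 ± 0.15 and -0.54 ± 0.15 in WT rats), and Slc22a4, the ergothioneine carrier, rose in both (0.63 ± 0.14 and 0.71 ± 0.14).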

How the data were processed

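Per the labels' protocols, RNA stored in RNAlater was labelled with Cy3 and hybridised to one-colour Agilent arrays, and, as the submitters' processing notes state, the scans were read with Agilent Feature Extraction 12.0.1.1. The deposited scanner files hold the processed signal of each spot as an intensity on a linear scale, already background-corrected per the file headers. The authors' deposited matrix of log2 values, in which each probe is centred on its median over arrays as judged from the values, has column medians of -0.0827 to 0.0691 and served only as an alternative. How it was scaled between arrays stays unknown here.

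Spots of a probe were averaged, control and outlier spots were left out, and log2 intensities were centred on the 75th percentile of each array. A gene was represented by its brightest probe, kept where well above background on 5 or more arrays with a value on 3 or more in every group. Group means were fitted with limma 3.58.1 in R 4.3.3 over all genes, with Benjamini-Hochberg adjustment and a threshold of 0.05, on code tested on simulated data. Each rat is 1 array, no arrays held identical values, and the number of arrays limits the precision. No value column was left without a sample. Slides were read from the file headers as batches. The members, lists and tests were chosen with earlier results of these data known. Named enzymes are those called in any comparison, with values in full for the largest changes, and a set of lung enzymes given whether called or not. Replicate numbers did not pair rats: the deviations of same-numbered rats of different groups correlated at 0.0297 on average over 85 pairs (-0.574 to 0.692), against 0.239 over 99 pairs on the same slide. The alternatives were quantile and array median scaling, normexp correction with offset 50, the authors' matrix, slide and replicate blocks, other filters, the mean of probes, and leaving out each array. Some measured items are not reported here.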

Additional observations from a re-analysis of the deposited data

Results flagged for a closer look

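Over the 31 called enzymes, 186 sets of values (1 enzyme in 1 group) were examined for a rat far from the rest of its group, and 4 were found, where chance gives about 1 in 20. Cyp2b2 was 2.46 in p53het control replicate 1, with the other p53het controls at 2.96 to 3.09. Cyp2j3 was -3.9 in p53het NM-403 replicate 3, with the others at -3.36 to -3.24. Cyp2j4 was -1.61 in WT NM-403 replicate 3, with the others at -2.11 to -1.93. Sult1c2a was -4.91 in p53het control replicate 6, with the others at -9.22 to -7.79.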

How the results depend on the processing

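The 63 calls of enzymes over 6 comparisons were kept with the slide as a fixed or random block, 60 with quantile normalization, 58 with array median scaling, 51 with normexp correction, 56 without the filter on dim probes and 58 with the mean of a gene's probes, and 34 of the 35 that could be tested in the authors' matrix were kept there. Cyp2g1 reversed to 0.05 in WT rats given Mitsui-7 with normexp correction. Counts for Mitsui-7 against controls were 37 in p53het and 38 in WT rats with the fixed slide block, 36 in p53het rats with the random slide block, and 15 and 16 in the authors' matrix, which holds 42 of the enzymes. The calls over all genes moved as well. With the random slide block 2071 genes were higher and 3102 lower in p53het rats. In the authors' matrix 743 were higher and 665 lower in p53het and 643 and 1101 in WT rats. For NM-403 against controls the enzyme counts were 7 and 8 with the fixed and 8 and 8 with the random slide block. In p53het rats they were 0 with normexp correction or without the filter and 2 with the mean of probes, and in WT rats 0 with median scaling. For Mitsui-7 against NM-403 the enzyme counts were 11 and 20 with the fixed and 11 and 21 with the random slide block, 2 and 4 in the authors' matrix, and 4 in WT rats with normexp correction. Over all genes of the authors' matrix 102 were higher and 33 lower in p53het and 198 and 117 in WT rats. Leaving out 1 array gave 20 to 26 enzyme calls in p53het and 19 to 26 in WT rats for Mitsui-7, 0 to 3 and 0 to 2 for NM-403, and 4 to 9 and 5 to 8 between the nanotubes. The NM-403 enzyme count in p53het rats was 0 without control replicate 2, 3, 4 or 5 or NM-403 replicate 2, 3, 4 or 5. With the replicate number as a block, which does not pair these rats, the enzyme counts were 25 and 26, 1 and 1, and 9 and 9 in p53het and WT rats, and 61 of the 63 calls were kept. The genotype comparison and both interactions stayed at 0 in every setting run. Cyp2a3, Cyp2g1, Gsto2, Sult1c2a and Sult1c3 were not well above background on some arrays, which limits their values. The cause of the changes was not tested.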
